A study of Mus musculus with 18 samples.

Results

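The genes described here encode the voltage-gated and potassium channels of the mouse and their accessory subunits. The family was taken up with earlier results of these data known, and its members were then listed by symbol: the protein-coding genes on autosomes in GENCODE vM21 (mm10 build) that are named as potassium channel (Kcn), sodium channel (Scn) or voltage-gated calcium channel (Cacna, Cacnb, Cacng) genes. There were 131 such genes among 20807 autosomal protein-coding genes. Histone marks over these genes were taken from 6 ChIP-seq peak lists of bone marrow-derived macrophages (BMDM), cells grown from marrow for 7 days with the macrophage colony-stimulating factor in L929 supernatant and not stimulated. H3K27me3, trimethylation of lysine 27 of histone H3, was measured in 2 ChIP libraries for each of the 3 genotypes, and H3K27ac, acetylation of the same lysine, in 2 libraries each of WT and mdx BMDM and in 1 of mdxTLR4-/- BMDM.

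WT mice are labelled C57BL6, mdx mice Dmdmdx-4Cv, and the mice labelled mTLR4 carry the strain label Bl6/Bl10 and were read as mdx mice that also lack TLR4 (mdxTLR4-/-). The mdx mice are a model of Duchenne muscular dystrophy that lacks full-length dystrophin, while the short dystrophin isoform of myeloid cells is described by the study as intact in them, and in mdxTLR4-/- mice TLR4 is missing from all cells and not from macrophages alone. The study describes the mice as male on a C57BL/6J background. In the labels the ages of the ChIP libraries rise from 12 to 17 weeks for H3K27me3 and from 19 to 23 weeks for H3K27ac in the order WT, mdx, mdxTLR4-/-, so that genotype, labelled age and labelled strain cannot be told apart. The replicates of a genotype had been merged before peaks were called. Each genotype is therefore 1 list per mark, a difference between genotypes has no replicate check, and no p-value is given.

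Voltage-gated channels open when the membrane potential changes and carry the potassium, sodium and calcium currents of the action potential in nerve, heart and skeletal muscle. Potassium channels of the inward rectifier, 2-pore and calcium-activated families set the resting potential of most cells, and a small number of potassium channels are known for macrophage and lymphocyte physiology. H3K27me3 is laid down by the Polycomb complex PRC2 and marks genes held silent in a lineage, often as broad domains over developmental and tissue-specific genes with CpG-rich starts. H3K27ac marks active promoters and enhancers.

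The H3K27me3 lists held 28143 peaks in WT, 41780 in mdx and 36488 in the mdxTLR4-/- list, with a median length of 5.4, 3.4 and 3.4 kb. The H3K27ac lists were shallow, with 12076 to 15665 peaks and a median of 8 to 10 reads in a peak. The reads inside peaks, which depend on how much was called, numbered 7358418 to 10199918 for H3K27me3 and 168487 to 274020 for H3K27ac, and how deeply the libraries were sequenced is unknown. Among 12 macrophage markers, an H3K27ac peak lay within 5 kb of the start of 12 in WT, 11 in mdx and 12 in the mdxTLR4-/- list. The marker without a peak in mdx was Csf1r, the receptor for macrophage colony-stimulating factor, where the nearest mdx peak began 5003 bp from the start and held 165 reads. H3K27me3 covered the start of 1 of the 12 in WT and of none in the other genotypes. Among 15 markers of other cells H3K27ac was found at 3, 2 and 2, namely Cd79a in WT, Ms4a1 and Pecam1 in all 3 lists. The defining T cell genes Cd3e and Cd3g and the collagen genes Col1a1 and Col1a2 had no H3K27ac peak in any list and had their starts under H3K27me3 in all 3.

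The upstream sequences of a few of these genes show how different their starts are. For 7 genes the 250 bases before the start are given from the GRCm38.p6 genome, which is the sequence of mm10, with each CG dinucleotide in capitals. The start is the more upstream of the GENCODE start and a RefSeq start within 1 kb of it, and none of the bases shown lie in an annotated exon. The genes were picked to show each state of the start. Kcnj2 (chr11:111065914-111066163, plus strand) had H3K27ac over its start in all lists and no H3K27me3. Kcna3 (chr3:107035912-107036161, plus strand) had no H3K27me3, and H3K27ac in mdx alone, downstream of the start. Kcnk3 (chr5:30587920-30588169, plus strand) lay wholly under H3K27me3, Kcnd2 (chr6:21215096-21215345, plus strand) had H3K27me3 at its start alone, and Kcna10 (chr3:107182806-107183055, plus strand) had its start under an H3K27me3 peak in all lists. Scn7a (chr2:66784915-66785164, minus strand) and Kcnj13 (chr1:87394730-87394979, minus strand) had neither mark. The sequences, 5′ to 3′ on the strand of the gene, are
Kcnj2: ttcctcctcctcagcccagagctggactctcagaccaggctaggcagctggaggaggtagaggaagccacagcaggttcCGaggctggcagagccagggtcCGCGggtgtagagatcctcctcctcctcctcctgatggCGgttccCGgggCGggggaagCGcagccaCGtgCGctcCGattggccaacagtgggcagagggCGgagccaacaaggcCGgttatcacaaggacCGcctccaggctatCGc
Kcna3: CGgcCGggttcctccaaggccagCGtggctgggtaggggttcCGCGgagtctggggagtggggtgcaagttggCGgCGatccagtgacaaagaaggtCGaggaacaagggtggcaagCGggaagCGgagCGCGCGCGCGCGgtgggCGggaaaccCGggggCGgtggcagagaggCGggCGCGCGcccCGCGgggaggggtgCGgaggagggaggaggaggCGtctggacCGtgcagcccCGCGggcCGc
Kcnk3: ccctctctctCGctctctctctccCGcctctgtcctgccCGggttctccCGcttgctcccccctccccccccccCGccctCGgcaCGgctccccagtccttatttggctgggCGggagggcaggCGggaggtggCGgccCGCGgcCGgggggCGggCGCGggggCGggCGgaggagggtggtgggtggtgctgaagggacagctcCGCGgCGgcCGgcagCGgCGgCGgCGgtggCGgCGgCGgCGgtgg
Kcnd2: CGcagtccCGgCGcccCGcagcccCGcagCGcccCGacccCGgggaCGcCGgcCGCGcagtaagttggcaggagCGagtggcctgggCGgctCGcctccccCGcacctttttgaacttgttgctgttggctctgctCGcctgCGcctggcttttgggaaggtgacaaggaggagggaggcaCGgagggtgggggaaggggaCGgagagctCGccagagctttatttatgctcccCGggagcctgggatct
Kcna10: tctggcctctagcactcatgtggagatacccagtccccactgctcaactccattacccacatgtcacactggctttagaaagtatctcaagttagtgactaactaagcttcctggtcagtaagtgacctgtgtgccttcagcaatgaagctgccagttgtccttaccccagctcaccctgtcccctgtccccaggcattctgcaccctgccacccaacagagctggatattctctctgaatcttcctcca
Scn7a: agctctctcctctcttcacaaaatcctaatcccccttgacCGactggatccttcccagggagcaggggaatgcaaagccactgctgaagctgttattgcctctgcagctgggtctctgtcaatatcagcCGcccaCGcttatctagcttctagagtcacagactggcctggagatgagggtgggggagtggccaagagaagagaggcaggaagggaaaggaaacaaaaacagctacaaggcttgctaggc
Kcnj13: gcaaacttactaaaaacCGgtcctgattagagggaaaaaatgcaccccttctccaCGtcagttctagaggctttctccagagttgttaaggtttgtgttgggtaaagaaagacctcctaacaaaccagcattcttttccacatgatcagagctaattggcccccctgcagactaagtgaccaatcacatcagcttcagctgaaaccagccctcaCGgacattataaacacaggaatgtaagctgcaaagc
These stretches held 14 CG in Kcnj2, 31 in Kcna3, 30 in Kcnk3, 22 in Kcnd2, 0 in Kcna10, 3 in Scn7a and 3 in Kcnj13. Kcna3 and Kcnk3 were alike in CG count, and of the pair only Kcnk3 was under H3K27me3. Kcna10 was under H3K27me3 without a CG in this stretch.

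The RE1 element, which the neuronal repressor REST binds, was looked for on both strands as a string of 15 letters, 2 of them free, within 5 kb of the start. It was found at 6 of the 131 genes (4.58%) and at 0.673% of all autosomal protein-coding genes. The 6 genes encode a presynaptic calcium channel (Cacna1b), 3 potassium channel subunits of the nervous system (Kcnh4, Kcnk12, Kcnt1) and 2 sodium channel subunits (Scn2a, Scn3b). Letters set by the string are in capitals and the free positions in lower case:
Cacna1b: CAGCACCacGGACAG
Kcnh4: CAGCACCctGGACAG
Kcnk12: CAGCACCgcGGACAG
Kcnt1: CAGCACCgcGGACAG
Scn2a: CAGCACCacGGACAG
Scn3b: CAGCACCacGGACAG
The matches lay at chr2:24762085-24762099 for Cacna1b, chr11:100759011-100759025 for Kcnh4, chr17:87798586-87798600 for Kcnk12, chr2:25864076-25864090 for Kcnt1, chr2:65619966-65619980 for Scn2a and chr9:40269744-40269758 for Scn3b. H3K27me3 covered the starts of 5 of the 6 in all 3 genotypes, and Scn2a had neither mark. The same held for the starts of 88 of the 131 channel genes (67.2%), and for 83 of the 140 genes with a match among all genes. A match is a description of the letters, and binding of REST was not measured.

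H3K27me3 covered a large share of the channel genes in every genotype. The measure was the percent of a gene window, running from 5 kb before the gene to 1 kb beyond it, that lay under peaks. A gene with at least 50% was designated Increased. The study used the same word and window for a different call, H3K27me3 read intensity significantly above that of the input. Its calls cannot be equated with those given here. In WT BMDM 67 of 131 channel genes were Increased (51.1%, 95% Wilson interval 42.7 to 59.6), against 17.5% of all autosomal protein-coding genes. In mdx BMDM there were 62 (47.3%, 39.0 to 55.8) against 17.1%, and in mdxTLR4-/- BMDM 59 (45.0%, 36.8 to 53.6) against 15.6%. The intervals cover counting of genes only. The mean coverage was 48.1% in WT, 46.8% in mdx and 44.1% in the mdxTLR4-/- list, with an SE over genes of 3.36 to 3.46, and 18.4%, 18.2% and 16.8% over all genes. Any H3K27me3 peak in the window was found for 109, 111 and 110 channel genes, against 40.1%, 42.9% and 40.5% of all genes.

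The transcription start was covered more often than the gene as a whole. For the counts only the outer start of each gene in GENCODE was used, and starts inside a gene were not looked at. A peak lay over the start of 95 channel genes in WT (72.5%), 93 in mdx (71.0%) and 92 in the mdxTLR4-/- list (70.2%), against 24.5%, 24.7% and 23.6% of all genes. For 88 of the 131 the start was covered in all 3 genotypes, against 21.0% of all genes. For 10 it was covered in 1 or 2 genotypes (6.68% of all genes), and for 33 in none (72.4% of all genes). The peaks over these starts had a median length of 13.6 kb in WT, 11.4 kb in mdx and 10.8 kb in the mdxTLR4-/- list, beside 12.6, 10.8 and 10.0 kb over the covered starts of all genes.

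Closely related gene groups were read the same way. Of 84 other ion channel genes 23, 21 and 18 were Increased in WT, mdx and mdxTLR4-/- BMDM (27.4%, 25.0% and 21.4%). Of 94 neurotransmitter receptor genes 38, 36 and 35 were Increased (40.4%, 38.3% and 37.2%), and of 22 partners of the channels, such as the sulfonylurea receptors and the Stac proteins, 7 were Increased in each genotype (31.8%). H3K27ac within 5 kb of the start was found at 24, 21 and 22 of the other ion channels, 4, 4 and 3 of the neurotransmitter receptors and 2, 2 and 1 of the partners. The differences between these groups were not tested.

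Among the 13 subunit classes the calcium channel gamma subunits, a family that includes the gamma subunit of the muscle calcium channel and the AMPA receptor regulators, were covered most fully. All 8 were Increased in WT and mdx and 7 in mdxTLR4-/- BMDM, with a mean coverage of 83.4%, 82.1% and 72.2%. Cacng1, the gamma subunit of the skeletal muscle channel, had 100% of its window under peaks in WT, 95.9% in mdx and 93.8% in the mdxTLR4-/- list. Cacng2, stargazin, which brings AMPA receptors to the synapse, had 97.3%, 93.2% and 89.7%. Cacng6, also a muscle subunit, had 94.3%, 94.3% and 95.4%. The gene that left the Increased class in mdxTLR4-/- BMDM was Cacng3, an AMPA receptor regulator of the brain, with 58.5% in WT, 50.6% in mdx and 31.1% in the mdxTLR4-/- list.

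**Figure D1:**
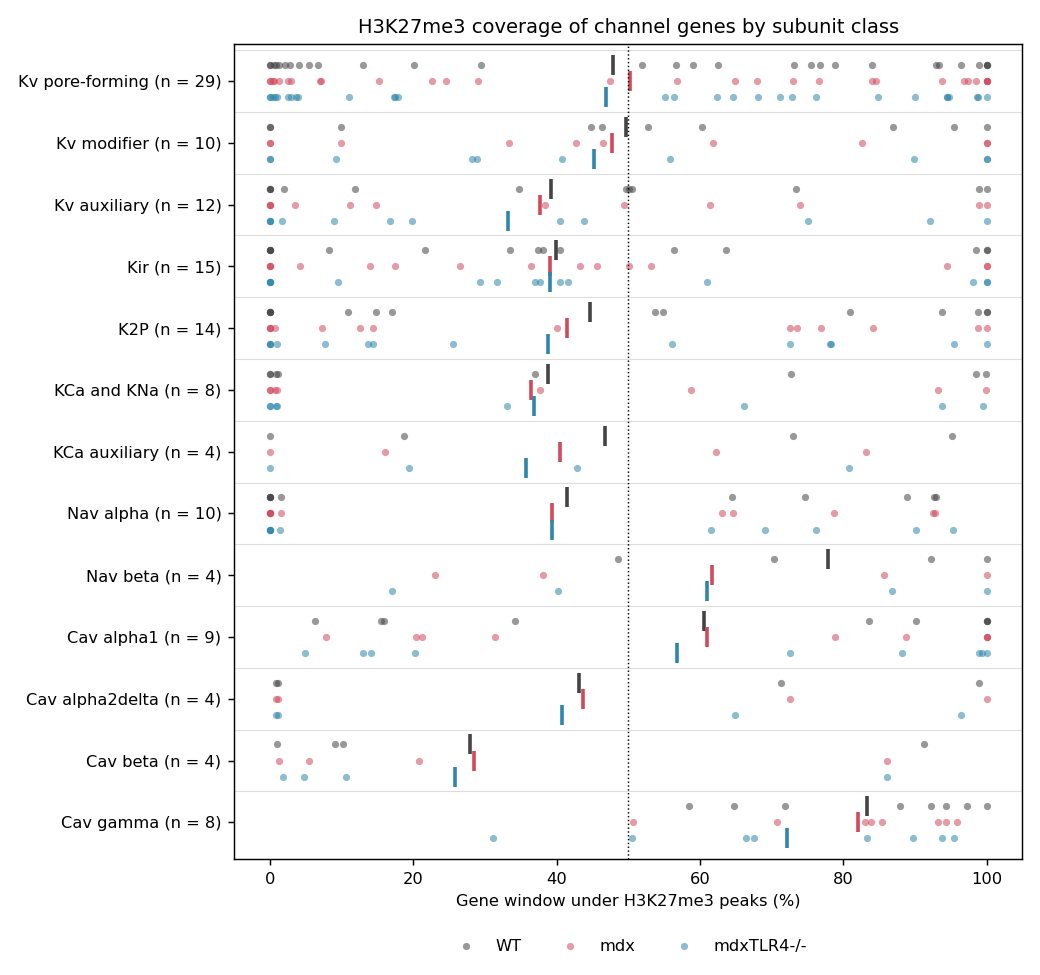
Percent of the gene window under H3K27me3 peaks (x axis) for 131 channel genes in 13 subunit classes (rows). Each point is 1 gene in 1 genotype (1 merged peak list), vertical ticks are the class means, and the dotted line is the 50% limit for Increased. The Kv pore-forming points run from 0 to 100 in each genotype, and the Cav gamma class has its 8 WT points above 50.

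The pore-forming alpha1 subunits of calcium channels were Increased in 5 of 9 in each genotype. Cacna1h, a T-type channel, was wholly covered in all 3 lists and lay in the longest peak over any channel gene start, chr17:25276801-25577800 in WT, of 301.0 kb with 21330 reads. That peak was 289.8 kb with 24126 reads in mdx and 295.4 kb with 21149 reads in the mdxTLR4-/- list. The other T-type channels Cacna1g and Cacna1i were covered by 100% in WT and mdx and by 98.9% and 99.3% in mdxTLR4-/- BMDM. Cacna1s, the voltage sensor of excitation-contraction coupling in skeletal muscle, had 90.1%, 88.8% and 88.2%. Cacna1c and Cacna1d, L-type channels of heart, smooth muscle and endocrine cells, had no peak over the start in any genotype and coverage of 15.9%, 21.2% and 13.0% and of 6.25%, 7.78% and 4.94%. All 4 alpha2delta genes had covered starts in each genotype, but only Cacna2d2 and Cacna2d4 were Increased. Of the 4 beta subunit genes 1, Cacnb3, was Increased, with 91.2%, 86.1% and 86.1%.

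The sodium channel alpha genes split by their place in the genome. Scn10a, a sodium channel of sensory neurons, had 88.9%, 78.7% and 76.3% of its window under peaks in WT, mdx and mdxTLR4-/- BMDM. Its neighbour Scn11a, also of sensory neurons, had 64.5%, 64.6% and 61.6%. Scn8a, of brain and motor neurons, had 92.6%, 92.9% and 95.3%, and Scn4a, of skeletal muscle, had 74.7%, 63.1% and 69.0%. By contrast, Scn2a, Scn3a, Scn7a and Scn9a had no H3K27me3 peak in their windows in any genotype, and Scn1a had 1.48%, 1.59% and 1.36%. None of these 5 genes of chromosome 2 had H3K27ac within 5 kb of the start.

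Among the voltage-gated potassium channels, 27 of 29 pore-forming genes had covered starts in WT, 25 in mdx and 27 in the mdxTLR4-/- list, and 16, 15 and 16 were Increased. The pore-forming genes without a covered start in any genotype were Kcna3 and Kcnh7. Of 10 modifier genes, which form channels only together with other subunits, 5, 4 and 4 were Increased, and Kcns1 was wholly covered in all lists. Of 12 auxiliary genes 5, 4 and 3 were Increased, and among them Kcne1, the partner of Kcnq1 in the slow cardiac current, was wholly covered in all lists.

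The inward rectifiers were Increased in 5, 5 and 4 of 15 and the 2-pore potassium channels in 7, 6 and 6 of 14. Kcnj4, an inward rectifier of the brain, and Kcnk3, an acid-sensitive 2-pore channel, were wholly covered in all lists. Kcnj11, the pore of the ATP-sensitive channel of beta cells and muscle, had 100%, 100% and 98.1%. Kcnj2, Kcnj3, Kcnj13, Kcnk6, Kcnk7 and Kcnk13 had no H3K27me3 peak in the window in any genotype. Of 8 calcium- and sodium-activated potassium channels 3 were Increased in each genotype: Kcnt1 with 99.9%, 99.9% and 99.6%, Kcnn3 with 98.5%, 93.2% and 93.8%, and Kcnn1 with 72.8%, 58.8% and 66.2%. Of their 4 auxiliary genes 2, 2 and 1 were Increased, Kcnmb1, the smooth muscle subunit, with 95.2%, 83.2% and 80.8%.

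Channel genes with windows above 150 kb were less fully covered than shorter ones, with a median coverage in WT of 2.03%, against 64.7% in windows of up to 50 kb and 72.4% between 50 and 150 kb. Windows of channel genes had a median of 51.3 kb, against 23.6 kb for all genes. In windows of up to 50 kb 42 of 65 channel genes were Increased in WT (64.6%, against 19.7% of all genes of that length), and between 50 and 150 kb 20 of 30 (66.7%, against 13.0%). Above 150 kb 5 of 36 were Increased (13.9%, against 6.11%), although H3K27me3 lay over the start of 22 of the 36 in WT (61.1%, against 38.4%). In 9 long genes the start was covered in all genotypes while less than 5% of the window was under peaks in WT (1.66% of all genes): Cacna2d1, Cacna2d3, Kcnab1, Kcnb2, Kcnc2, Kcnd2, Kcnh5, Kcnh8 and Kcnq5. The clearest example was Kcnd2, the channel of the fast transient potassium current in neurons and heart, whose window spans 520.3 kb. Its peak over the start was 2.6 kb long in WT (chr6:21214201-21216800, 84 reads), 2.4 kb in mdx (98 reads) and 2.2 kb in the mdxTLR4-/- list (74 reads), and H3K27me3 touched 1 of its 6 exons. At the other end, 7 genes lay wholly under peaks in all 3 genotypes (2.51% of all genes did so), and 26 genes with covered starts had at least 90% of the window under peaks in all 3 genotypes (5.02% of all genes).

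The median CpG content of the start was higher in channel genes with H3K27me3 over the start in all genotypes, or with H3K27ac in at least 1 list and no H3K27me3 there, than in those with neither mark. The measure was the observed over expected CpG ratio in the 1 kb centred on the start. Its median was 0.551 for the 88 channel genes under H3K27me3 in all genotypes, 0.574 for the 7 with H3K27ac and no H3K27me3 over the start, and 0.325 for the 26 with neither mark. Of those 26 genes 2 had a ratio of at least 0.6 (7.69%, against 26.9% of all genes with neither mark), Kcnh7 with 0.626 and Kcnk2 with 0.627. The groups overlapped widely: ratios ran from 0.119 to 0.953 among the 88 genes and from 0.0685 to 0.627 among the 26. Among all autosomal protein-coding genes the median was 0.528 with H3K27me3 over the start in all genotypes, 0.740 with H3K27ac and no H3K27me3, and 0.250 with neither mark. Without grouping it was 0.469 for channel genes and 0.569 for all genes. These are descriptions of the groups, at the outer start of each gene alone, without a test.

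**Figure D2:**
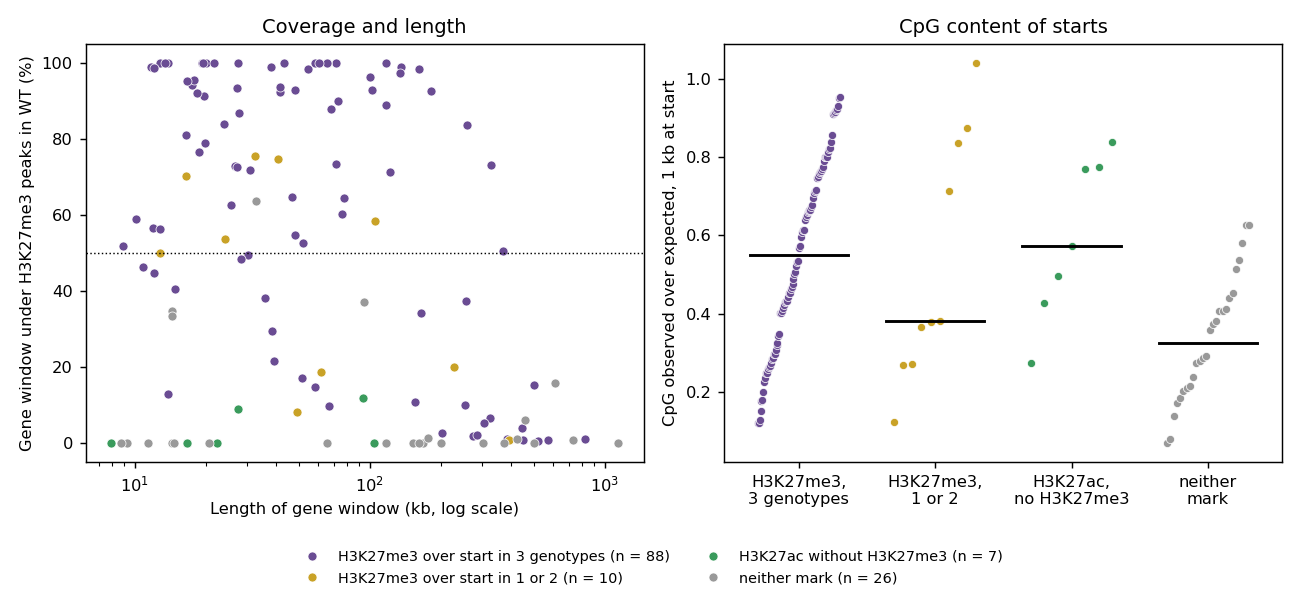
Left, percent of the window under H3K27me3 peaks in WT against window length in kb (log scale) for 131 channel genes, with the 50% limit dotted. Right, observed over expected CpG ratio of the 1 kb at the start for the same genes, grouped by the marks at the start, with bars at the medians. Points are genes, coloured by group, and 36 windows are above 150 kb, 5 of them Increased.

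Of 9 channel genes known for macrophages and other leukocytes 1 was Increased in each genotype (11.1%), a share near the 17.5%, 17.1% and 15.6% of all genes. An H3K27ac peak lay within 5 kb of the start of 5 in WT (55.6%), 6 in mdx (66.7%) and 3 in the mdxTLR4-/- list (33.3%), against 32.9%, 28.3% and 30.4% of all genes. Kcna3, the delayed rectifier of T cells and macrophages, Kcnj2, an inward rectifier that sets the macrophage resting potential, Kcnn4, the calcium-activated channel of leukocytes and red cells, and the 2-pore channels Kcnk6 and Kcnk13 had no H3K27me3 peak in the window in any genotype. Kcnma1, the large-conductance calcium-activated channel, had 0.821%, 0.657% and 0.793% of its window under peaks and no H3K27ac near the start. Kcnab2, a beta subunit of voltage-gated potassium channels, had 11.9%, 14.8% and 8.88% under peaks, none of them over the start. Kcne3, an accessory subunit of Kcnq1 in epithelia, had 34.8%, 11.1% and 16.7% and no H3K27ac. The Increased gene was Kcnq1, the pore of the slow cardiac current, with 73.1%, 68.0% and 64.6%, its start covered and 16, 16 and 15 of its 16 exons touched by H3K27me3.

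Kcna3 lies in a run of channel genes on chromosome 3 whose other members were under H3K27me3. In this run, chr3:107036169-107459552, Kcna3 is followed by Kcna2, Kcna10 and Kcnc4. H3K27me3 covered 78.9%, 76.6% and 72.8% of the window of Kcna2, a channel of axons, in WT, mdx and mdxTLR4-/- BMDM, 76.7%, 100% and 68.2% of Kcna10, a channel of inner ear hair cells and kidney, and 93.4%, 84.6% and 94.5% of Kcnc4, a channel of fast-firing neurons and muscle. The values at Kcna3 were 0 in each. The nearest peak downstream of the Kcna3 start began 53.4 kb away in WT, 53.2 kb in mdx and 53.8 kb in the mdxTLR4-/- list, and the nearest upstream ended 59.0, 71.6 and 76.0 kb away. The H3K27ac peak at Kcna3 was seen in mdx alone, at chr3:107037401-107039000, with 7 reads. It lay 1232 bp downstream of the start, inside and beyond the only exon of the gene.

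**Figure D3:**
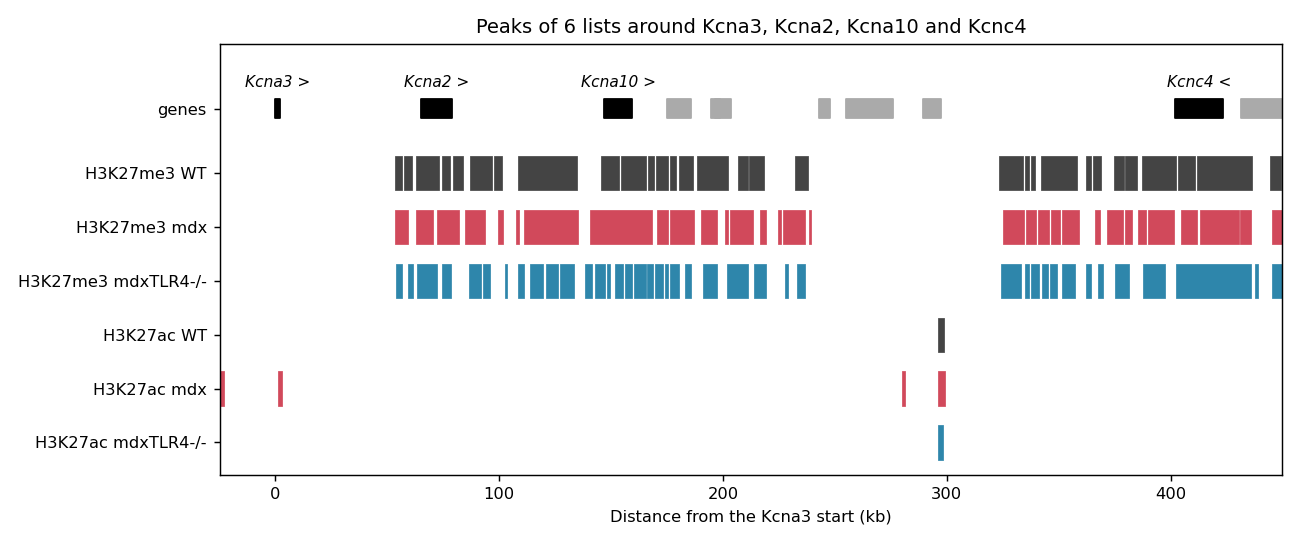
Peaks of the 6 lists (rows, 3 for H3K27me3 and 3 for H3K27ac) along the run of Kcna3, Kcna2, Kcna10 and Kcnc4, as distance in kb from the Kcna3 start. Black boxes are the 4 channel genes with the direction of transcription, grey boxes other protein-coding genes, and coloured blocks peaks. H3K27me3 begins about 53 kb beyond Kcna3 in all 3 genotypes, and the 1 block of H3K27ac beside Kcna3 is from mdx.

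Across the genome 7 runs held 3 or more channel genes with starts at most 500 kb apart, of which 6 are given here, and these differed widely in H3K27me3. The sodium channel run of Scn1a, Scn9a and Scn7a (chr2:66270778-66784914) had 0.506% of its span under peaks in WT, 0.545% in mdx and 0.467% in the mdxTLR4-/- list, from 1 peak in each. The 2 runs of calcium channel gamma genes had 81.9%, 75.0% and 70.4% (Cacng1, Cacng4 and Cacng5, chr11:107703218-107915055) and 81.3%, 83.5% and 69.2% (Cacng7, Cacng8 and Cacng6, chr7:3332955-3435667). The run of Kcna5, Kcna1 and Kcna6 (chr6:126532551-126740674) had 15.5%, 13.6% and 10.9%, although all 3 starts were covered in each genotype. The run of Kcna7, Kcnj14, Kcnj11 and Kcnc1 (chr7:45405653-46438704) had 54.0%, 51.5% and 49.8%, and that of Kcna3 49.9%, 50.4% and 41.6%. Neighbouring channel genes also shared peaks: 8 channel genes lay over peaks in common with another in each genotype, among them Scn2b and Scn4b, Cacng1 and Cacng4, and Cacng6 and Cacng8, so that their values are not independent.

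Channels of muscle, heart and nerve were read as groups. Of 12 channel genes known for skeletal muscle 9 were Increased in each genotype (75.0%), with a mean coverage of 68.3%, 68.8% and 68.4%. The share Increased was 51.1%, 47.3% and 45.0% in the whole channel family and 17.5%, 17.1% and 15.6% over all genes. Kcnj12, an inward rectifier of muscle, had 98.5%, 94.5% and 100%, and Scn4b was covered wholly. The 3 muscle genes that were not Increased were Cacna2d1 with 0.808%, 0.808% and 0.852%, Cacnb1 with 9.06%, 5.42% and 4.70%, and Kcne4 with 0 in each. Of 11 cardiac channel genes 6, 5 and 6 were Increased (54.5%, 45.5% and 54.5%), with Kcnh2, the channel of the rapid repolarizing current, at 98.9%, 96.8% and 94.7%. Of 16 neuronal channel genes 9 were Increased in each genotype (56.25%), with Cacna1a, the P/Q-type channel, at 83.6%, 78.8% and 72.6%. H3K27ac was present at 1 muscle gene (Cacnb1) in each genotype and at 0 cardiac and 0 neuronal genes. It was found at 5.34%, 6.87% and 5.34% of the family and 32.9%, 28.3% and 30.4% of all genes. Differences of these groups from the family were not tested.

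Between WT and mdx BMDM most channel genes kept their coverage within 20 percentage points. The mean change was -1.22 points (SE over genes 0.727), with 50 genes lower, 41 higher and 40 equal. Of all genes 20.3% were lower and 19.5% higher, and 12539 of 20807 were equal. A difference of at least 20 points was seen for 2 genes lower and 2 higher, where 2.05% of all genes were lower and 1.85% higher by that much. When the same number of peaks was taken from each list, the mean change was -5.06 points, beside -2.04 over all genes, with 12 channel genes lower and 2 higher (4.24% and 0.817% of all genes), so the count of genes lower in mdx depended on how many peaks of each list were used. In the order WT, mdx, mdxTLR4-/-, 58 channel genes were Increased in all lists and 64 in none (14.7% and 81.1% of all genes). The other 9 left the class: 4 in mdx and mdxTLR4-/- (among them Kcng3, Kcnip1 and Kcnk5), 4 in mdxTLR4-/- alone (Cacng3, Kcnab3, Kcnj1, Kcnmb3) and 1 in mdx alone (Kcna5), where 1.13%, 1.25% and 0.375% of all genes did so. Only genes Increased in WT could leave the class, which were 67 channel genes and 3633 of all genes. Of the 3633, 236, 261 and 78 left it in these 3 ways, beside 4, 4 and 1 of the 67. Of the channel genes 0 were Increased in mdx or mdxTLR4-/- BMDM without being so in WT, where 1.44% of all genes were.

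Among the genes reported here, the largest fall was at Kcne3, given above. The next largest falls were at Kcnk1, a 2-pore channel (93.7%, 76.9% and 78.1%), Kcnk16, a 2-pore channel of the pancreas (100%, 84.1% and 78.3%), and Kcnk5, an alkaline-activated 2-pore channel (54.9%, 40.1% and 25.6%).

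The genes higher in mdx BMDM by 20 points were Kcna7, a channel of muscle, and Kcna10. Kcna7 (chr7:45405653-45409763, plus strand) had 59.0% in WT, 98.5% in mdx and 76.3% in the mdxTLR4-/- list. Its start was covered in all 3, by a peak of 16.0 kb with 1376 reads in WT, 21.0 kb with 1758 reads in mdx and 16.6 kb with 1466 reads in the mdxTLR4-/- list, and the added length in mdx lay mainly upstream, where the peak began at 45400801 in place of 45404801. Kcna10 (chr3:107183056-107195721, plus strand) had 76.7%, 100% and 68.2%, with a peak over the start of 8.0, 27.8 and 4.4 kb. Kcnk18, a 2-pore channel of sensory neurons, followed with 53.7%, 73.5% and 56.1%, then Cacng8 with 71.9%, 83.9% and 66.4% and Kcna4, a transient potassium channel, with 13.0%, 24.5% and 17.3%.

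From mdx to mdxTLR4-/- BMDM lower values outnumbered higher ones. The mean change was -2.78 points (SE over genes 0.610), with 71 genes lower, 28 higher and 32 equal. Of all genes 26.9% were lower (5595) and 13.3% higher (2758), and 12454 of 20807 were equal. With peak numbers made equal between lists the mean change was -0.713 points, beside -0.740 over all genes, and with denser peaks alone -1.08, beside -0.758 over all genes, so its size depended on the peaks used. Kcna10, Kcna7 and Cacng5 were lower by at least 20 points and no channel gene was higher by as much (2.87% and 0.798% of all genes). Cacng5 had 64.7% in WT, 70.7% in mdx and 50.5% in the mdxTLR4-/- list. Cacng3, given above, and Kcnmb3, an accessory subunit of large-conductance channels (72.9%, 62.3% and 42.8%), came next. The largest rises were at Kcnj10, an inward rectifier of glia (21.6%, 17.5% and 29.3%), Kcnj14 (33.5%, 26.5% and 37.7%), Kcnc4, Kcna5, a channel of atria and vascular muscle (51.9%, 47.4% and 56.4%), and Kcnj8, an ATP-sensitive channel pore (56.4%, 53.2% and 61.0%).

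Between WT and mdxTLR4-/- BMDM the mean change was -3.999 points (SE over genes 0.760), with 78 channel genes lower, 24 higher and 29 equal. Of all genes 25.9% were lower and 12.8% higher, and 12748 of 20807 were equal. By at least 20 points 9 channel genes were lower and 0 higher (3.47% and 0.966% of all genes). With peak numbers made equal between lists the mean change was -5.77 points, beside -2.78 over all genes, and with denser peaks alone -2.15, beside -0.800. These pairs share lists, so the 3 comparisons are not independent of each other. Over all genes the mean changes were -0.188 from WT to mdx, -1.47 from mdx to mdxTLR4-/- and -1.66 from WT to mdxTLR4-/- BMDM. All genes started from a mean coverage of 18.4% in WT and 18.2% in mdx, and channel genes from 48.1% and 46.8%. Whether the size of the changes is related to the starting coverage was not tested. The accessory and modifier genes had a mean of 52.5%, 49.6% and 45.3% and the pore-forming genes of 45.6%, 45.3% and 43.4%.

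**Figure D4:**
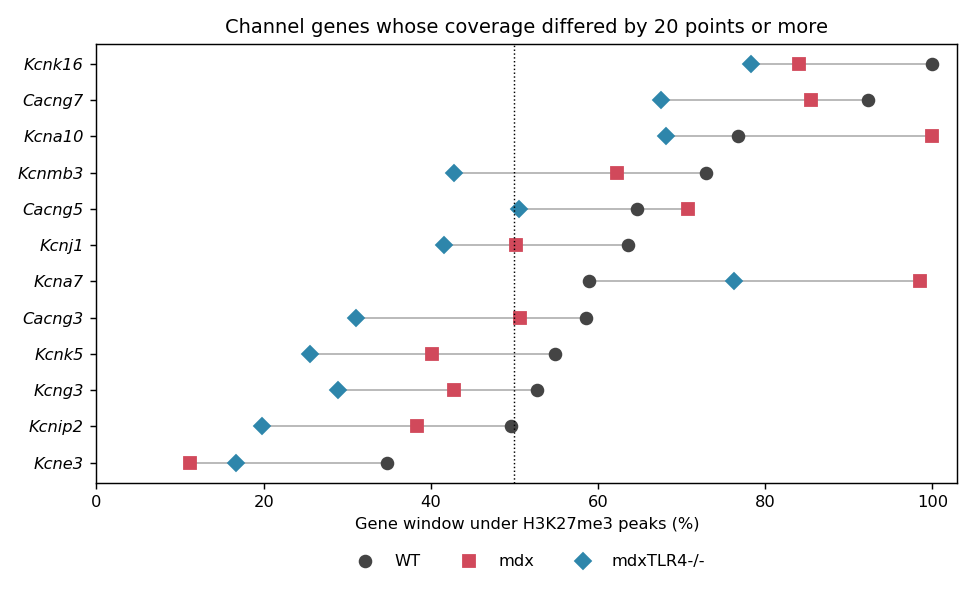
Percent of the gene window under H3K27me3 peaks (x axis) in WT (circles), mdx (squares) and mdxTLR4-/- (diamonds) BMDM for 12 channel genes that differed by at least 20 percentage points between any pair of lists, each symbol being 1 merged list. The dotted line is the 50% limit. Kcna7 spans the widest range of those shown, from 59.0% in WT to 98.5% in mdx, and Kcna10 also has its highest value in mdx.

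The density of reads in the peaks over channel genes followed that of all genes, and its direction depended on the scaling. Without scaling, the median ratio of reads per kb in the peaks that touch a window was 1.20 for mdx over WT, 0.824 for mdxTLR4-/- over mdx and 0.987 for mdxTLR4-/- over WT, beside 1.20, 0.812 and 0.975 over all genes. Scaled to the reads in peaks of each list, the medians were 0.982, 1.14 and 1.12. Scaled to the 1st percentile of peak density of each list, they were 1.03, 1.05 and 1.08. No direction of change in read density between the genotypes can therefore be given.

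H3K27ac was found near the start of few channel genes. A peak lay within 5 kb of the start of 7 of 131 in WT (5.34%, 95% Wilson interval 2.61 to 10.6), 9 in mdx (6.87%, 3.66 to 12.5) and 7 in the mdxTLR4-/- list (5.34%, 2.61 to 10.6), against 32.9%, 28.3% and 30.4% of all genes. A peak over the start itself was found for 6, 4 and 2 (24.7%, 21.2% and 21.7% of all genes). In all, 11 channel genes had a peak in at least 1 list (39.6% of all genes) and 5 in all 3 (Cacnb1, Kcnj2, Kcnk13, Kcnk6 and Scn2b), against 21.8% of all genes for the latter. Neither H3K27me3 over the start nor H3K27ac was found at 26 channel genes in any list, against 34.5% of all genes. Peaks held as few as 5 reads and the mdxTLR4-/- list came from 1 library, so that the absence of a peak does not show the absence of the mark.

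Kcnj2 had a peak over its start in all 3 lists, with 10 reads in WT, 13 in mdx and 7 in the mdxTLR4-/- list, and no start of another protein-coding gene nearby, the nearest being that of Kcnj16. The exact Poisson intervals of these counts, which cover counting error only, were 4.80 to 18.4, 6.92 to 22.2 and 2.81 to 14.4 and overlapped. Kcnk13, a halothane-inhibited 2-pore channel of microglia and macrophages, had 27, 16 and 6 reads in 1 peak per list. That peak covered the start in WT (chr12:99963801-99968600), began 302 bp downstream of it in mdx and 1702 bp downstream in the mdxTLR4-/- list. The interval of the WT count, 17.8 to 39.3, did not overlap that of the mdxTLR4-/- count, 2.20 to 13.1, and the reads in all H3K27ac peaks were also fewer in mdxTLR4-/- (168487) than in WT (274020). Kcnk6, a 2-pore channel of endosomes and macrophages, had 28, 14 and 5 reads. A peak over its start was found in WT, and in mdx 7 of the 14 reads lay in a peak over the start of the neighbouring gene Yif1b.

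Cacnb1, the beta subunit of the muscle calcium channel, had 33, 22 and 20 reads in 2 peaks per list, of which the peak over its own start held 8, 10 and 6 and the other lay over the start of Rpl19, a ribosomal protein gene. Kcnn4 had 16 reads in WT in 2 peaks and 8 in mdx in 1, both lists with a peak over the start, and no peak in mdxTLR4-/- BMDM. Kcnab2 had 11 reads in WT and 19 in mdx over its start, with the start of Nphp4 less than 1 kb beyond the peak, and no peak in mdxTLR4-/- BMDM. Kcnab3, Kcnj10 and Kcnk18 each had a peak in 1 list only. The peak at Kcnab3 in mdxTLR4-/- BMDM (8 reads) lay 21 bp from the start of Trappc1, and those at Kcnj10 in mdx (10 reads) and Kcnk18 in the mdxTLR4-/- list (5 reads) lay 4991 and 4814 bp from the starts.

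**Figure D5:**
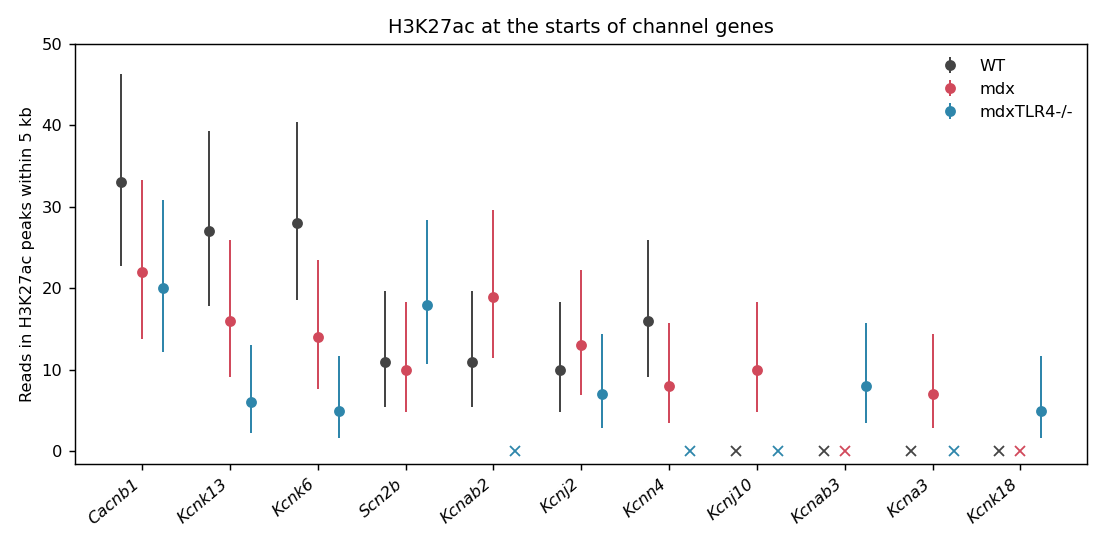
Reads in H3K27ac peaks within 5 kb of the start (y axis) for the 11 channel genes with a peak in at least 1 list, in WT, mdx and mdxTLR4-/- BMDM, from 1 list per genotype. Bars are exact 95% Poisson intervals of the read counts (counting error only) and crosses at 0 mark lists without a peak. Cacnb1, Kcnk13, Kcnk6, Scn2b and Kcnj2 have reads in all 3 lists, at 5 to 33 reads.

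Both marks at the start, that is H3K27me3 over it and H3K27ac within 5 kb, were found for 1 channel gene in WT, 2 in mdx and 1 in the mdxTLR4-/- list (0.928%, 0.558% and 0.558% of all genes). Scn2b, a sodium channel beta subunit, was the gene found in all 3 genotypes, and Kcnj10 was the other in mdx. The H3K27ac peak nearest the Scn2b start lay 3982 bp from it in WT, 4382 bp in mdx and 3782 bp in the mdxTLR4-/- list. At Scn2b the marks lay side by side in WT. The H3K27ac peak of 11 reads ended at chr9:45113800 and the H3K27me3 peak of 46.6 kb with 2673 reads, which also covers Scn4b, began at chr9:45114201. In mdx the H3K27ac peak of 10 reads ended at chr9:45113400, before the H3K27me3 peak that began at chr9:45114201, and in mdxTLR4-/- BMDM the peak of 11 reads ended at chr9:45114000, before one that began at chr9:45114401. A further H3K27ac peak of 7 reads in mdxTLR4-/- BMDM, chr9:45122401-45123400, overlapped the end of the H3K27me3 peak there, which ran to chr9:45123200. In mdx and mdxTLR4-/- BMDM the H3K27me3 of this locus was called as 2 peaks, of 8.4 and 37.0 kb and of 8.8 and 38.0 kb.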

How the data were processed

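ChIP-seq of BMDM was described in 18 samples by the labels: 6 ChIP and 6 input libraries for H3K27me3, and 5 ChIP and 1 input library for H3K27ac. As the methods of the study and the labels state, the authors used Bowtie2 to place reads on mm10, pooled the replicates and then ran SICER2 for peaks (window 200 bp, gap 600 bp, FDR below 0.01). The submitters' processing notes name CASAVA 1.8, cutadapt 1.15, Bowtie2 2.3.4 and SICER 2.0. The deposited values are whole-number counts of ChIP reads per peak, with no scaling for depth or length and no subtraction of input. A broad caller with a gap joins nearby windows, so a small difference in depth can split or join peaks and change coverage.

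Peaks were intersected, with a minimum overlap of 1 bp, with gene windows of GENCODE vM21 on chromosomes 1 to 19. Increased meant at least 50% of the window under peaks and a change at least 20 percentage points. Coverage, starts, H3K27ac within 5 kb, read densities and CpG content were computed with Python 3.11.15, numpy 2.4.6, pandas 2.3.3, scipy 1.17.1 and matplotlib 3.10.9, and the code was checked on simulated lists. The GRCm38.p6 genome and RefSeq starts, found for 97 of 131 genes, gave the sequences.

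The channel family and all gene lists were chosen with earlier results of these data known, and the members of the family were then listed by symbol. The genes named were the lists of macrophage and muscle channels, the 5 largest falls and rises from WT to mdx and from mdx to mdxTLR4-/-, the 5 with the most H3K27ac reads and the 5 with the longest H3K27me3 peak over the start in WT, genes with both marks in all genotypes, and runs of at least 3 genes; other genes named as examples of a class or count were chosen after their values were seen. A few genes are not reported here by name, but the counts and means include them. With 1 list per genotype no test was possible. Input libraries and read intensity over input were not analysed here, and 3 channel genes on the X chromosome were left out of the counts.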

Additional observations from a re-analysis of the deposited data

Results flagged for a closer look

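Signal was also present in data outside the counts above, over channel genes on the X chromosome, which the choice of autosomal genes left out. H3K27me3 covered 31.7% of the window of Cacna1f, a calcium channel of the retina, in WT, 28.1% in mdx and 31.7% in the mdxTLR4-/- list. For Kcne1l, an accessory subunit of potassium channels, the values were 29.2% in WT, 72.2% in mdx and 34.5% in the mdxTLR4-/- list. The third X-linked channel gene, Kcnd1, had 0 in each. These are values of 1 list per genotype, and the differences between genotypes were not tested.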

How the results depend on the processing

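No paired analysis was possible because the replicates were merged into 1 list per genotype before deposit, and for the same reason no replicate could be left out. Under other settings 53 values stayed within 1.5 times of a count or within the 95% interval of a mean over genes, 32 moved further and 5 changed direction. Those 53 include sizeable shifts: 81, 83 and 76 genes were Increased at a limit of 20% coverage, and from WT to mdx the mean change came to -0.303 points for pore-forming genes and -1.91 with peaks of at least 2 kb. Counting the 85 pore-forming genes alone gave 41, 39 and 39 Increased genes in WT, mdx and mdxTLR4-/- BMDM. As shares these were 48.2%, 45.9% and 45.9%, beside 51.1%, 47.3% and 45.0% of all 131 channel genes. H3K27ac was found at 4 of the 85 in WT and 4 in mdxTLR4-/- (4.71% in each, beside 5.34% of the 131). With 1 kb on each side of the start as window, 97 genes in WT, 95 in mdx and 93 in mdxTLR4-/- were Increased, and the mean coverage was 72.7%, 71.5% and 69.7%. The mean change with the same number of peaks per list was -5.06 from WT to mdx, -0.713 from mdx to mdxTLR4-/- and -5.77 points from WT to mdxTLR4-/-. With denser peaks alone it was -1.08 from mdx to mdxTLR4-/- and -2.15 from WT to mdxTLR4-/-, and for pore-forming genes -2.24 from WT to mdxTLR4-/-. With a change of 10 points, 15 genes were lower and 7 higher from WT to mdx, 17 and 2 from mdx to mdxTLR4-/-, and 19 and 1 from WT to mdxTLR4-/-. No share of all genes is given at this limit, so these counts have no comparison. With the same number of peaks per list, 12 were lower from WT to mdx (4.24% of all genes). By that setting 1 was higher from mdx to mdxTLR4-/- (1.07%) and 15 were lower from WT to mdxTLR4-/- (5.27%). With peaks of at least 2 kb 5 were lower from mdx to mdxTLR4-/- (3.16%). The median density ratio of mdx over WT turned from 1.20 to 0.982 when scaled to reads in peaks and was 1.03 by the 1st percentile. That of mdxTLR4-/- over mdx turned from 0.824 to 1.14 and 1.05, and that of mdxTLR4-/- over WT from 0.987 to 1.12 and 1.08. H3K27ac within 1 kb of the start was found for 5 genes in mdx and 3 in mdxTLR4-/-. In mdxTLR4-/- it was found for 4 with 200 bp in the upstream 5 kb and for 2 in peaks of at least 10 reads. Both marks within 1 kb of the start were found for 1 gene in WT, 1 in mdx and 1 in mdxTLR4-/-. In no list was this Scn2b, whose nearest H3K27ac peak lay 3982, 4382 and 3782 bp from the start. The cause of these shifts was not tested for any setting. Depth is unknown and the H3K27ac lists are thin, which limits what the absence of a peak shows.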
